A study of Homo sapiens with 12 samples.

Results

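The microRNA (miRNA) content of extracellular vesicles (EVs) released by a miR-122 knockout line of MDA-MB-231 was compared with that of EVs from its control line. MDA-MB-231 is a human triple-negative breast cancer line with a mesenchymal character. The comparison takes 4 of the 12 small RNA libraries in the series, 2 of knockout EVs and 2 of control EVs, and all 2588 entries of a table of counts per mature human miRNA. The control line carried an empty lentiviral vector, and the knockout line was edited at the miR-122 gene with CRISPR-Cas9 and 2 guide RNAs. Both were kept in medium with 10% fetal bovine serum, moved to serum-free medium with 1% bovine serum albumin for 24 h, and their EVs were pelleted from that medium at 110000 g. The control was not described as carrying Cas9 or a guide, and whether the knockout line was 1 clone is not stated, so the edit and other differences between the lines cannot be told apart. The remaining libraries are the cells of both lines, harvested together with the EVs, and cells and EVs of another line, in which RAB27A was knocked down by RNA interference. Replicates are numbered 1 and 2, and the labels do not tie the numbers to separate cultures. The p-values therefore reflect the scatter of these libraries alone, part or all of which may be technical.

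A miRNA is cut from a hairpin precursor into a duplex of about equal arms, the 5p and 3p strands, and guides Argonaute proteins to messenger RNAs mainly through the seed, bases 2 to 8 of the mature strand. EVs carry miRNAs out of the cell, and a pellet from conditioned medium can hold any particle or RNA-protein complex that sediments with them. miR-122 is the dominant miRNA of hepatocytes, where it tunes cholesterol and glucose metabolism. Secretion of miR-122 by breast cancer cells has been studied for its effect on glucose use in other tissues.

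Control EVs gave 2387336 and 2596391 counts and knockout EVs 3754673 and 3166760, with 956 and 977 against 983 and 933 entries detected. Replicates correlated at 0.9951 (control EVs, 443 entries) and 0.9936 (knockout EVs, 398 entries) in log2 CPM, CPM being the library's counts scaled to a total of 1e6. The miRNAs that mark this line at high level, miR-21-5p, miR-100-5p, miR-221-3p and miR-222-3p, summed to 48.3% and 48.8% of the counts in control EVs and to 54% and 54.9% in knockout EVs. The epithelial miRNAs that the line should hold at low level summed to at most 0.0328% in any of the 4 libraries. The control EVs stood apart from all other libraries in 1 respect: entries below 1 CPM in control cells made up 1.06% and 0.897% of their counts, against 0.233% and 0.262% in RAB27A knockdown EVs and 0.0404% and 0.0392% in knockout EVs.

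The sequence at the centre of the comparison is miR-122-5p, from the hairpin at chr18:58451074-58451158 on the plus strand (GRCh38.p14, RefSeq). It is printed 5′ to 3′ with the seed in capitals, as are all mature sequences below, which were taken from RefSeq. The guides are printed as DNA with the bases that overlap a mature arm in capitals.
miR-122-5p: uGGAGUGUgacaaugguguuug
guide 1: CACACTAAATAgctactgct
guide 2: CACACTCCAcagctctgcta
Guide 1 matches the sense strand at hairpin positions 62 to 81 and shares 11 bases with the 3p arm at positions 51 to 72. Guide 2 matches the antisense strand at positions 4 to 23 and shares 9 bases with the 5p arm at positions 15 to 36. Both matches are followed by AGG, which the common Cas9 recognises, and would place cuts between hairpin positions 78 and 79 and between 6 and 7. Both arms lie between those cuts.

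miR-122-5p was almost lost from the EVs of the knockout line. It had 790 and 651 counts in control EVs (331 and 251 CPM) and 4 and 3 counts in knockout EVs (1.07 and 0.947 CPM), so that the groups were far apart. The fall was 210-fold, with a log2 fold change of −7.72 (SE 0.30, adjusted p = 2.84e-10 by edgeR's quasi-likelihood test). In the cells the same sequence was near the limit of detection, with 5 and 4 counts in control cells and none in the knockout cells. The other arm, miR-122-3p, had no count in the 4 EV libraries, and the antisense miR-3591-5p had 1, in control EVs. The liver and gut miRNA miR-192-5p stood at 230 and 245 CPM in control EVs against 219 and 230 in knockout EVs (log2 fold change 0.29, adjusted p = 0.0724). miR-194-5p stood at 173 and 188 against 164 and 164 (0.24, adjusted p = 0.223). The liver list summed to 264 and 279 CPM in control cells, where miR-122-5p was at 0.422 and 0.361. Of 68 tested entries below 1 CPM there, 54 were lower and 2 higher, most of this being fixed by the filter on low counts. Among them the unedited miR-127-3p fell 172-fold and miR-144-5p 174-fold. Whether the edit accounts for the fall of miR-122-5p in EVs was not tested.

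Over the table, 488 entries had enough counts to test and 201 of them passed an adjusted p of 0.05 (41.2%), 109 lower in knockout EVs (22.3%) and 92 higher (18.9%). The changes were lopsided in size. By fitted fold change, 68 of the lower ones fell at least 4-fold and 58 at least 16-fold, whereas 7 rose at least 4-fold. The fitted value above 16-fold on the rising side was that of miR-887-3p, with no count in control EVs and 8 and 4 in knockout EVs, which puts it at least 2.88-fold higher. On the falling side, 13 tested entries had no count in knockout EVs. The counts alone do not place all of them at 16-fold: miR-125b-2-3p (fitted 52.3-fold) was at least 8.33-fold lower, miR-136-5p (80.7) at least 13-fold and miR-1185-5p (98.3) at least 15.7-fold. In CPM the libraries of the groups did not overlap for 274 entries lower in knockout EVs (56.1%) and 85 higher (17.4%). The log2 fold changes are on the scale of edgeR's TMM factors, which add 0.38 to the log2 ratio of CPM values and put the median of all tested entries at 0.03. Scaled to library totals the median was −0.34, and 42 entries were higher and 177 lower, 19.2% of the calls being higher against 45.8% with TMM factors. Across 6 scalings and tools, 100 entries were lower in each and 37 were higher in each, and 81 and 29 of these also held without each EV library in turn. Leaving out control EV replicate 2 reduced the calls to 127. Rises are therefore described below mainly for entries that held under every scaling.

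**Figure D1:**
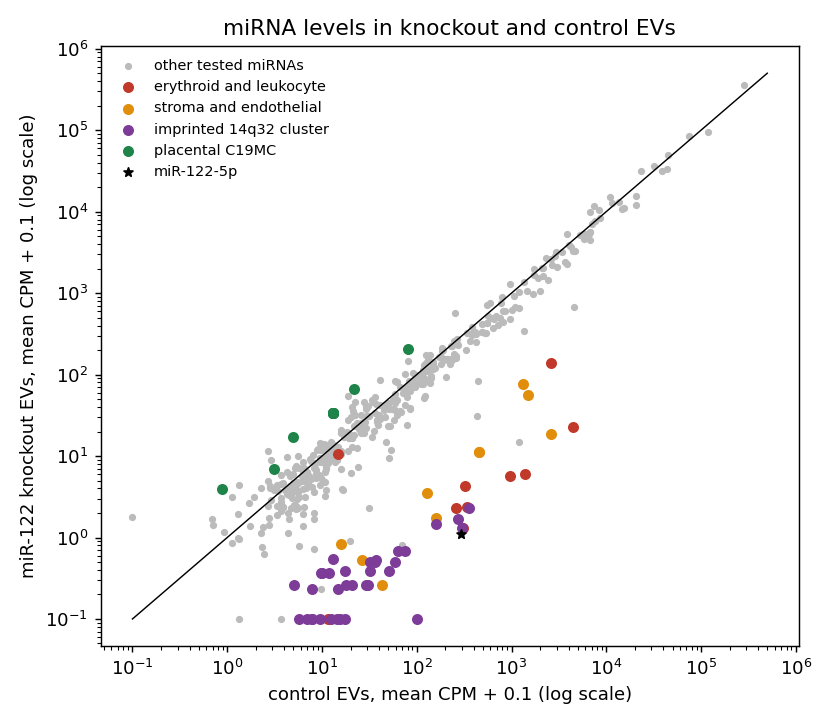
Mean CPM of each of 488 tested miRNAs in control EVs (x axis) and miR-122 knockout EVs (y axis), both on log scales with 0.1 CPM added, 2 libraries a group; the line marks equal CPM. Most entries run along the line while the erythroid (except miR-486-3p, near the line), leukocyte, stromal, endothelial and 14q32 miRNAs and miR-122-5p lie far below it, and the C19MC miRNAs lie above it.

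The deepest falls belonged to groups named for blood, vessel and connective tissue cells and into 1 imprinted cluster. Of the 58 entries that fell at least 16-fold by fitted fold change, 50 belonged to 5 lists (erythroid, leukocyte, stroma, endothelial and 14q32). These lists were drawn up with earlier results of these data known and so give no independent support. A representative of each is shown, since no seed is shared across these groups.
miR-144-3p (erythroid): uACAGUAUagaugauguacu
miR-142-5p (leukocyte): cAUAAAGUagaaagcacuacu
miR-223-3p (myeloid): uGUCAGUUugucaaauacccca
miR-143-3p (smooth muscle): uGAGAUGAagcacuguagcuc
miR-126-3p (endothelial): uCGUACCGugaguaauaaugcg
miR-127-3p (14q32): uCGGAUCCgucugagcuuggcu
miR-369-3p (14q32): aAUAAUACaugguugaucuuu
miR-379-5p (14q32): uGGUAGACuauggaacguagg

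Erythroid miRNAs were the most abundant of these in control EVs. The 6 listed entries summed to 9515 and 8107 CPM in control EVs and to 207 and 149 CPM in knockout EVs, 49.5-fold lower, with 278 and 263 CPM in control cells. miR-451a, the red cell miRNA that is matured by Argonaute2 without Dicer, was counted 11917 and 10324 times in control EVs and 139 and 25 times in knockout EVs (4992 and 3976 against 37 and 7.89 CPM). Its log2 fold change was −7.21 (SE 0.60, adjusted p = 0.00035), and the knockout replicates themselves differed more than 4-fold. miR-144-3p, made from the same transcript, fell from 1595 and 1189 CPM to 10.1 and 1.58 (−7.43, SE 0.48, adjusted p = 5.99e-06), with knockout replicates that were likewise far apart. miR-486-5p, a red cell and muscle miRNA that the cells also held at 274 and 257 CPM, fell from 2560 and 2671 CPM to 148 and 128 (−3.86, SE 0.13, adjusted p = 1.92e-10). Its partner strand miR-486-3p did not move with it, at 13.4 and 16.2 against 9.85 and 11.1 CPM (−0.13, SE 0.29, adjusted p = 0.76).

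Leukocyte miRNAs fell further in proportion. The 6 listed entries summed to 2013 and 1789 CPM in control EVs and to 18.9 and 9.47 CPM in knockout EVs, 134-fold lower, and to 10.4 and 11.5 CPM in control cells. miR-142-5p and miR-142-3p, found throughout the blood lineages, fell from 1048 and 874 to 7.99 and 3.16 CPM (−6.99, SE 0.27, adjusted p = 2.84e-10) and from 355 and 292 to 4.79 and 3.47 CPM (−5.88, SE 0.23, adjusted p = 2.84e-10). The myeloid miR-223-3p had 822 and 888 counts in control EVs, 11 and 5 in knockout EVs and none in the cells of either line (−6.81, SE 0.23). The lymphocyte miR-150-5p went from 608 and 699 counts to 12 and 4 (−6.42, SE 0.25), against 1 count in the 4 cell libraries. miR-155-5p, induced in activated lymphocytes and macrophages and known as an oncogenic miRNA, belonged to another list and fell alike in EVs, with 171 and 178 counts against 3 and 2 (−6.12, SE 0.31, adjusted p = 1.11e-08). In cells, where it was rare, it was called higher in the knockout line, as were all 4 tested entries of its list (27% of all tested entries were). Of the leukocyte list 0 were higher and 2 lower in cells.

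Stromal and endothelial miRNAs made up the next group. Stromal entries summed to 3849 and 3934 CPM in control EVs and to 54.6 and 40.4 in knockout EVs, 81.9-fold lower, with 20.2 and 22 CPM in control cells. miR-143-3p, the leading miRNA of smooth muscle, was at 2543 and 2674 CPM in control EVs, 25 and 12.3 in knockout EVs and 6.42 and 8.4 in control cells (−6.72, SE 0.23, adjusted p = 1.92e-10). Its cluster partner miR-145-5p had 80 and 133 counts in control EVs against 0 and 1, a ratio of 296 with an exact binomial 95% interval of 52.5 to 11738 that covers counting error only. miR-199a-3p, a fibroblast miRNA, fell from 471 and 436 CPM to 10.7 and 11.7 (−4.97, SE 0.18), and miR-214-3p from the same transcript fell from 15.1 and 16.6 to 0.533 and 0.947 CPM (−3.98, SE 0.46). For the stromal entries 8 entries were tested, 7 of them with distinct counts. The cell difference passed for 1 of the 7, against 61.7% of all entries tested for it. The list summed to only 12.2 and 15 CPM in knockout cells, where miR-145-5p had 3 and 1 counts. Missing cell calls among entries this rare do not show that their levels were equal. By the interaction test the change in EVs lay below the change in cells for 7 of 7, against 23.3% of all. These entries were abundant in control EVs alone, and the list was drawn up with earlier results known. The interaction count was therefore largely fixed in advance and gives no independent support.

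Both arms of miR-126, the endothelial miRNA encoded in EGFL7, were lower as well. miR-126-3p stood at 1363 and 1256 CPM in control EVs and 73.2 and 80.2 in knockout EVs (−3.72, SE 0.14), and miR-126-5p at 1603 and 1392 against 62.9 and 49.3 (−4.36, SE 0.18). Unlike most stromal miRNAs, for which no cell difference passed, they also fell in the cells, miR-126-3p from 73 and 71.1 CPM to 13.4 and 15.9 (−1.98, SE 0.15). The fall in EVs exceeded that in cells by −1.86 (SE 0.20, adjusted p = 5.13e-11) for miR-126-3p and by −2.64 (SE 0.23, adjusted p = 3.19e-14) for miR-126-5p.

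The imprinted miRNA cluster at 14q32, which is transcribed from the maternal chromosome and is silent in many cancer lines, was represented in control EVs by many mature strands. Its 91 entries in the table summed to 1972 and 1861 CPM in control EVs, 18.4 and 8.53 CPM in knockout EVs and 0.845 and 0.994 CPM in control cells. In knockout EVs 60 of the 91 had no count, against 23 in control EVs. The 34 that reached the test did so through the control EVs, so their median log2 fold change of −5.74, with zeros set at their bounds, describes entries that had to differ. They lie along chromosome 14 in segments of neighbouring hairpins (same strand, gaps of at most 10000 bases). From 100869075 to 100884771 all 7 tested strands were lower, and from 101022071 to 101066786 all 23.

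Within 14q32, miR-127-3p, encoded antisense to the imprinted gene RTL1, had 724 and 784 counts in control EVs and 8 and 1 in knockout EVs (−7.43, SE 0.31, adjusted p = 5.02e-10). miR-369-3p had 274 and 228 counts in control EVs and none in knockout EVs, which makes it at least 232-fold lower against a limit of 3 counts over the group. miR-379-5p fell from 269 and 274 CPM to 1.6 and 1.58 (−6.99, SE 0.22), miR-411-5p from 326 and 384 to 3.73 and 0.632 (−6.86, SE 0.31) and miR-494-3p from 174 and 142 to 2.13 and 0.632 (−6.35, SE 0.31). miR-409-5p and miR-487b-3p went from 164 and 207 counts to 2 and 2 and from 185 and 128 to 2 and 2. None of these strands had more than 4 counts in any control or knockout cell library.

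**Figure D2:**
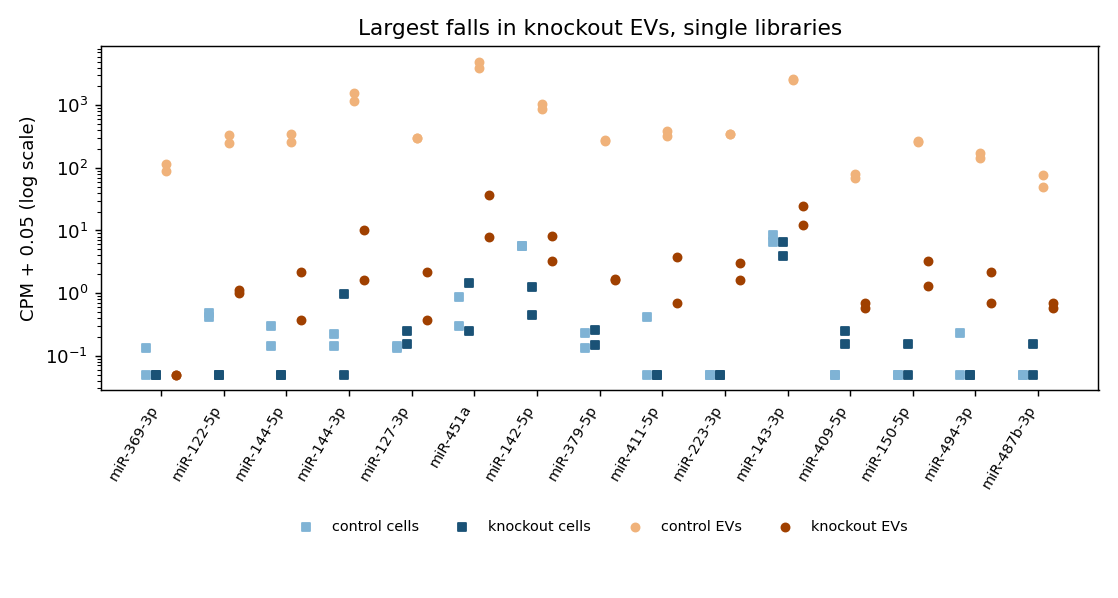
CPM of the 15 miRNAs with the largest falls in knockout EVs, by library, on a log scale with 0.05 CPM added; squares are cells and circles EVs, 2 libraries a group. Both control EV libraries stand at or above the 49.3 CPM of miR-487b-3p for all 15 and both knockout EV libraries at or below the 37 CPM of miR-451a, while cells of both lines mostly lie near or at the bottom of the scale.

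Read across the table, the share of counts held by entries below 1 CPM in control cells differed most between the groups. These entries numbered 2036, summed to 10625 and 8972 CPM in control EVs against the 0.0404% and 0.0392% of counts they took in knockout EVs. Of them 68 were tested, 54 being lower and 2 higher (miR-521 and miR-887-3p), but 57 of the 68 reached the level of the filter on low counts, 4.01 CPM, in both control EV libraries and 6 in both knockout EV libraries, so that most of this count was fixed by the filter. Of the 552 entries at 1 CPM or more, 420 were tested, with 55 lower, 90 higher and a median log2 fold change of 0.11. The medians were 0.08 from 1 to 10 CPM, 0.17 from 10 to 100 and 0.04 from 100 to 1000. The shares of counts were nevertheless lower in knockout EVs. They were 0.713% and 0.687% in control EVs against 0.152% and 0.158% from 1 to 10 CPM. From 10 to 100 CPM they were 1.04% and 1.01% against 0.587% and 0.565%, and from 100 to 1000 CPM 3.38% and 3.37% against 2.58% and 2.44%. By fitted fold change, falls of at least 16-fold numbered 48 below 1 CPM, 8 from 1 to 10, 2 from 10 to 100 and 0 above. Among the 61 entries at 1000 CPM or more in control cells, which held 93.8% and 94% of the counts in control EVs and 96.6% and 96.8% in knockout EVs, 6 were lower, 24 were higher, and differences ran from −2.37 to 1.02. Of all 109 lower entries, 23 had no count in any of the 4 cell libraries of these lines. Of the same 109, 65 did not reach the filter level in both knockout EV libraries. Where the miRNAs that were rare in the cells came from was not tested.

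**Figure D3:**
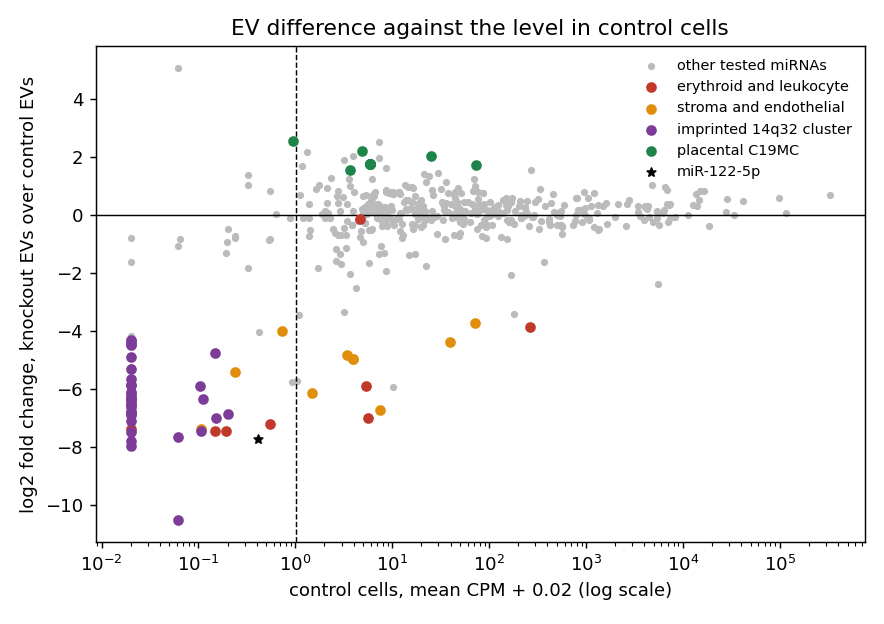
log2 fold change between knockout and control EVs (y axis) against the mean CPM in control cells (x axis, log scale with 0.02 CPM added) for 488 tested miRNAs; the dashed line marks 1 CPM. Left of it lie 68 entries, of which 57 reached the filter level in both control EV libraries and 6 in both knockout EV libraries, so that they were bound to lie low. Right of it the median is 0.11.

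Several falls outside those lists concerned miRNAs with a close relative that did not fall. miR-10b-5p, which lies in the HOXD cluster and is known for promoting breast cancer invasion, was at 1240 and 1131 CPM in control EVs and 17.8 and 11.7 in knockout EVs (−5.93, SE 0.22, adjusted p = 2.83e-10). Its HOXB relative miR-10a-5p stood at 5234 and 5394 against 5240 and 5034 CPM, with overlapping libraries (0.33, SE 0.11, a rise that was lost or turned under other scalings). The control cells held miR-10b-5p at 10.9 and 9.49 CPM and miR-10a-5p at 7417 and 6965.

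The miR-99 and miR-100 family, which represses mTOR, showed a contrast inside 1 seed. The mature strands are shown because miR-99a-5p differs from miR-100-5p only by A16U, counted from the 5′ end with the base of miR-100-5p first.
miR-100-5p: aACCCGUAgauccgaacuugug
miR-99a-5p: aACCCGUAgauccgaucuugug
miR-99b-5p: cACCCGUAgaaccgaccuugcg
miR-99a-5p fell from 1323 and 1357 CPM to 345 and 331 (−1.61, SE 0.12, adjusted p = 2.25e-07), although in the cells it was higher in the knockout line (0.70, SE 0.12). miR-100-5p, the most abundant miRNA of all 4 EV libraries, rose from 276702 and 289698 CPM to 349152 and 359963 (0.70, SE 0.09, adjusted p = 2.93e-05), close to its rise in the cells (0.87, SE 0.11, interaction adjusted p = 0.137). miR-99b-5p rose from 7614 and 9080 to 10755 and 10456 CPM (0.72, SE 0.11). The summed level of the seed family went from 285640 and 300135 to 360252 and 370749 CPM. The chromosome 21 neighbours of miR-99a were also lower: let-7c-5p from 64.9 and 67 to 41 and 31.3 CPM (−0.48, adjusted p = 0.0374, lost when control EV replicate 2 or knockout EV replicate 2 was left out), and miR-125b-2-3p from 7 and 11 counts to none, at least 8.33-fold. In cells miR-125b-2-3p likewise went from 11 and 12 counts to none, whereas let-7c-5p did not pass (0.36, SE 0.18, adjusted p = 0.0752). Whether reads of the far more abundant miR-100-5p were counted as miR-99a-5p was not tested, and the allowed mismatches are not given.

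miR-148a-3p, which targets DNA methyltransferase 1, fell most in EVs among the 61 miRNAs at 1000 CPM or more in control cells. The family shares its seed, and miR-148b-3p differs from miR-148a-3p by C9U and U10C.
miR-148a-3p: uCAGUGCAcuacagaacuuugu
miR-148b-3p: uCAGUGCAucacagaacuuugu
miR-152-3p: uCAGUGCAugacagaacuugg
It went from 4290 and 4821 CPM to 668 and 690 in EVs (−2.37, SE 0.15, adjusted p = 3.84e-08) and from 5579 and 5540 to 300 and 274 in cells (−3.95, SE 0.14), the fall in EVs being the smaller by 1.46 (SE 0.18, adjusted p = 8.65e-10). Its passenger strand miR-148a-5p fell by 2.07 in EVs (SE 0.22) and by 2.52 in cells (SE 0.16). In EVs miR-148b-3p (−0.24, SE 0.13, adjusted p = 0.176) and miR-152-3p (0.05, SE 0.15, adjusted p = 0.846) did not pass. With library totals miR-148b-3p passed at −0.61.

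Other falls were shared with the cells. miR-342-3p, encoded in EVL and best known from blood cells, fell from 419 and 455 CPM to 36 and 26.5 in EVs (−3.42, SE 0.17, adjusted p = 2.65e-09) and from 183 and 176 to 21.2 and 23.2 in cells (−2.70, SE 0.15). Of the X-linked miR-106a-363 cluster, a paralogue of miR-17-92, miR-363-3p had 42 and 27 counts in control EVs against 1 and 0, a ratio of 95.8 (exact binomial 95% interval 16.6 to 3839). miR-106a-5p fell from 24.7 and 23.5 to 5.86 and 8.53 CPM (−1.38, SE 0.30) and miR-20b-5p from 9.22 and 6.93 to 1.6 and 2.21 (−1.69, SE 0.42). Their near copies from miR-17-92 did not pass with TMM factors: miR-17-5p, which differs from miR-106a-5p by A1C with the base of miR-106a-5p first, stood at −0.07 (SE 0.11) and miR-20a-5p at −0.16 (SE 0.11). With library totals both passed as lower, miR-17-5p at −0.44 (adjusted p = 0.00413) and miR-20a-5p at −0.53 (adjusted p = 0.000878). On chromosome 7, 3 of 3 tested strands of miR-489 and miR-653 were lower in EVs (22.3% of all tested entries) and in cells (34.7% of all). In EVs only miR-653-3p held under every scaling and tool, at 17.2 and 16.2 against 3.73 and 3.79 CPM (−1.76, SE 0.32), whereas miR-489-3p and miR-653-5p did not. The muscle miRNA miR-1-3p fell from 39.4 and 23.9 CPM to 2.13 and 2.21 (−3.45, SE 0.39).

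Entries whose annotated sequence overlaps another abundant RNA were looked at separately. Of 20 tested, 6 were lower and none higher, against 22.3% lower among all tested entries. miR-1246, whose sequence is also found in U2 small nuclear RNA, fell from 476 and 412 CPM to 82.6 and 84.3 (−2.04, SE 0.14, adjusted p = 7.48e-08), miR-7704 from 54.9 and 52.4 to 10.4 and 12.9 (−1.83, SE 0.21) and miR-4488 from 110 and 131 to 50.9 and 57.5 (−0.78, SE 0.16). All 3 were below 5 CPM in the control and knockout cells, and reads of such entries cannot be told apart from fragments of the other RNA.

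On the side of the rises, the placental cluster on chromosome 19 (C19MC), a primate-specific set normally expressed from the paternal allele in trophoblast, stood higher. Its 62 entries summed to 195 and 188 CPM in control EVs and to 516 and 502 CPM in knockout EVs, 2.65-fold higher. Of 11 tested entries 11 were higher, but 6 of them carry identical counts, so that there were 6 distinct sets of counts, and 9 entries held under every scaling. The strand shared by those identical entries, printed under the name of 1 of them, and the most abundant strand of the cluster have similar but different seeds.
miR-518e-5p: cUCUAGAGggaagcgcuuucug
miR-516a-5p: uUCUCGAGgaaagaagcacuuuc
miR-516a-5p rose from 83.8 and 75.9 CPM to 203 and 206 (1.73, SE 0.16, adjusted p = 1.66e-06), the strand shared with miR-518e-5p from 13 and 13.1 to 33.6 and 34.4 (1.75, SE 0.20), and miR-522-3p from 22.6 and 20.4 to 77.2 and 57.2 (2.03, SE 0.21). Each also rose in the cells, miR-516a-5p by 3.08 (SE 0.14) from 73.3 and 72 CPM to 469 and 518. The rise of miR-516a-5p in EVs was smaller by −1.47 (SE 0.20, adjusted p = 2.11e-08), while that of miR-522-3p did not differ beyond the error (0.04, SE 0.26, adjusted p = 0.984). Counting identical entries once, the interaction was below 0 for 2 of the 6 distinct sets of the cluster, against 23.3% of all entries tested for it.

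miR-146a, a repressor that NF-kappaB induces against its own pathway, rose in both arms. miR-146a-5p went from 7567 and 7272 CPM to 11678 and 11458 in EVs (1.02, SE 0.11, adjusted p = 7.55e-06) and from 4790 and 4749 to 23567 and 24854 in cells (2.66, SE 0.12), so that the rise in EVs was smaller by −1.77 (SE 0.16, adjusted p = 7.96e-14). The rarer strand miR-146a-3p rose from 18.4 and 18.5 to 53.3 and 57.2 CPM in EVs (1.95, SE 0.17), and its rise in cells did not differ from that beyond the error (interaction −0.39, SE 0.29, adjusted p = 0.293).

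The miR-200 family, which represses ZEB1 and ZEB2 and marks epithelial cells, split by locus. The strands of 1 seed are set side by side.
miR-200b-3p (chromosome 1): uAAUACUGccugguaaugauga
miR-429 (chromosome 1): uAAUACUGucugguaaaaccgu
miR-200c-3p (chromosome 12): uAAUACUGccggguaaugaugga
From the chromosome 1 locus, miR-200b-3p rose from 79.6 and 80.1 to 147 and 147 CPM in EVs (1.25, SE 0.13, adjusted p = 5.66e-06), miR-200a-3p from 41.5 and 40.4 to 82.6 and 88.7 (1.44, SE 0.15) and miR-429 from 25.6 and 18.9 to 48.7 and 42 (1.41, SE 0.20). miR-200c-3p, from chromosome 12, stood at 45.7 and 35.8 against 42.6 and 41.4 CPM (0.42, SE 0.17, adjusted p = 0.0669). In the cells miR-200b-3p (0.26, SE 0.14) and miR-429 (−0.10, SE 0.18) did not pass, miR-200a-3p rose from 30.2 and 29.5 to 42.3 and 47 CPM (0.90, SE 0.16) and miR-200c-3p fell by 2.20 (SE 0.20). All levels remained far below those of the leading miRNAs, and miR-203a-3p, another epithelial miRNA, fell from 22.6 and 10 to 4 and 3.79 CPM (−1.66, SE 0.44, lost without control EV replicate 1).

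miRNAs that rose in EVs against the direction of the cells were led by miR-455-3p, encoded in the cartilage collagen gene COL27A1. It went from 240 and 261 to 564 and 561 CPM in EVs (1.54, SE 0.12, adjusted p = 3.15e-07) while it fell from 269 and 271 to 131 and 133 CPM in cells (−0.71, SE 0.13). miR-23b-3p rose from 6440 and 6903 to 9786 and 10145 CPM in EVs (0.96, SE 0.11) and fell in cells by 0.54 (SE 0.11). miR-135b-5p rose from 19.7 and 21.6 to 42.6 and 37.6 CPM (1.34, SE 0.19) and miR-664a-3p from 30.6 and 24.6 to 42.9 and 50.2 (1.13, SE 0.19), against falls of 2.29 (SE 0.20) and 2.34 (SE 0.24) in cells. For all 4 the interaction passed, with adjusted p from 2.84e-15 for miR-135b-5p to 3.82e-10 for miR-23b-3p. Of 488 entries tested in both fits, 22 were higher in EVs and lower in cells, 17 were lower in EVs and higher in cells, 47 were higher in both and 32 lower in both. Among the same 488, 175 were lower and 140 higher in cells, and 92 were higher and 109 lower in EVs. Rises in EVs thus went with rises in cells more often than with falls.

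**Figure D4:**
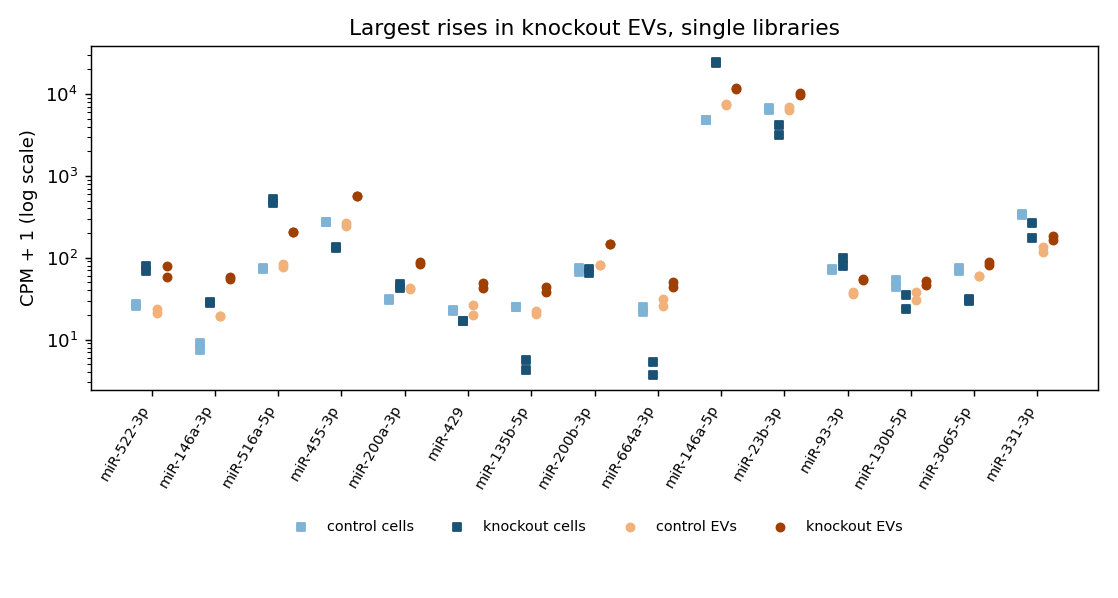
CPM of the 15 miRNAs with the largest rises in knockout EVs, by library, on a log scale with 1 CPM added; squares are cells and circles EVs, 2 libraries a group. miR-522-3p, miR-146a and miR-516a-5p are higher in knockout cells as well, whereas miR-135b-5p and miR-664a-3p are higher in EVs and lower in cells.

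The neighbours of miR-23b on chromosome 9 moved in 1 direction, with 6 of 6 tested strands of miR-23b, miR-27b and miR-24-1 higher, but only miR-23b-3p and miR-27b-5p under every scaling. The sister cluster on chromosome 19 gave 3 higher and 1 lower of 6, and miR-24-3p is made from both. In the cluster of miR-99b, let-7e and miR-125a, 4 of 6 were higher. Among all tested entries 18.9% were higher and 22.3% lower. miR-125a-5p rose from 3641 and 4033 to 6006 and 4729 CPM (0.86, SE 0.16), but this and the rises of let-7e-5p (0.79, SE 0.13) and let-7a-5p (0.81, SE 0.14) were lost without control EV replicate 2, that of miR-125a-5p also without control EV replicate 1. miR-125b-5p, which shares the seed of miR-125a-5p, rose from 10888 and 11067 to 16088 and 14204 CPM (0.84, SE 0.13). The other most abundant strands changed little: miR-21-5p was at 123369 and 112573 against 90859 and 99973 CPM (0.07, SE 0.09, adjusted p = 0.622, but lower by −0.31 with library totals), miR-221-3p at 74382 and 76319 against 90256 and 81558 (0.57, SE 0.09, lost with library totals at 0.19) and let-7i-5p at 45375 and 45131 against 49119 and 48733 (0.49, SE 0.09, lost with library totals at 0.11).

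A different picture appeared when the EV differences were set beside those of the producing cells. Over the 61 entries at 1000 CPM or more in control cells, the log2 fold changes had an SD of 0.498 in EVs and 1.37 in cells. At least a 2-fold difference that passed the test was found for 2 of them in EVs and for 25 in cells. The interaction, the EV difference minus the cell difference in 1 model over all 12 libraries, passed for 277 of 574 entries (48.3%), 143 above 0 (24.9%) and 134 below 0 (23.3%), and in the 61 abundant entries for 31 above and 12 below. In that fit 354 entries differed between the cells (61.7%), 27% of those tested being higher in knockout cells and 34.7% lower. Of the 57 entries that fell at least 4-fold in cells, 16 were lower in EVs, against 22.3% of all tested entries. The median log2 fold change of the 57 in EVs was −0.12. The EV and cell differences come from the same lines and share no library, whereas the interaction contains the cell difference, so it is given no count among entries chosen by their fall in cells.

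miR-454-3p, of the miR-130 and miR-301 family, shows the pattern. It fell from 6329 and 6282 CPM to 289 and 310 in cells (−4.08, SE 0.12), while the EVs held 4453 and 4114 CPM in the control line and 3700 and 3720 in the knockout line (0.17, SE 0.10, adjusted p = 0.23), an interaction of 4.12 (SE 0.16, adjusted p = 3.41e-27). miR-20a-5p, of the growth-promoting miR-17-92 cluster, fell from 3836 and 4011 to 281 and 347 CPM in cells and stood at 3209 and 2897 against 2080 and 2135 in EVs (−0.16, SE 0.11, and −0.53 with library totals, which passed). miR-16-5p, a repressor of cell cycle genes, fell from 7326 and 6797 to 672 and 935 CPM in cells and stood at 7095 and 6466 against 4181 and 4731 in EVs (−0.23, SE 0.11, and −0.61 with library totals, which passed), with an interaction of 2.48 (SE 0.17). In each of these the knockout EVs held several times the CPM of the knockout cells that released them.

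miR-27a-3p and miR-27b-3p, which share a seed and differ by C19U with the base of miR-27a-3p first, show the same in both copies.
miR-27a-3p: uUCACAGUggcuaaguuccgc
miR-27b-3p: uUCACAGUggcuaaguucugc
In cells miR-27a-3p fell from 8326 and 8365 to 961 and 1470 CPM and miR-27b-3p from 28633 and 28473 to 6593 and 8324. In EVs miR-27a-3p stood at 14487 and 15088 against 10351 and 11406 CPM (−0.07, SE 0.09, and −0.44 with library totals, which passed) and miR-27b-3p at 31691 and 32367 against 34498 and 38088 (0.56, SE 0.09, lost with library totals at 0.18). The interactions were 2.29 (SE 0.17, adjusted p = 1.15e-16) and 2.06 (SE 0.16, adjusted p = 3.31e-16).

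By family, the tested strands of miR-374, miR-421 and miR-335 gave 8 of 8 lower in cells, against 34.7% of all tested entries. In EVs none passed with TMM factors and 1, miR-335-5p, was lower with library totals (−0.71, adjusted p = 0.000518). The median log2 fold changes were of −3.49 in cells and 0.12 in EVs with TMM factors. The summed level of the list, which also holds miR-545, went from 2171 and 2242 to 252 and 264 CPM in cells and from 2161 and 1969 to 1670 and 1629 CPM in EVs. Of 11 tested strands of the miR-15/16 family, which restrains the cell cycle, 9 fell in cells (34.7% of all tested entries did). In EVs none passed with TMM factors, whereas with library totals 6 were lower, miR-16-5p and miR-15a-5p (−0.57) among them. That scaling lowers all differences, and 177 of all 488 tested entries were lower with it. The 14 tested entries of the primate-specific miR-548 family held 10 distinct sets of counts, of which 7 fell in cells (34.7% of all tested entries did) and 1, miR-548ay-5p, rose in EVs (18.9% of all did). That rise (0.79, adjusted p = 0.0451) was lost with library totals (0.41). The let-7 family, which represses RAS and HMGA2, kept a summed level of 138519 and 129975 CPM in control EVs and 139647 and 129313 in knockout EVs. Within it let-7f-5p stood at 40500 and 36458 against 31997 and 31311 CPM in EVs (0.09, SE 0.11) but fell in cells from 27362 and 28347 to 4344 and 5289. GC content of the mature strand moved with the cell differences more than with those of EVs, at a Spearman correlation of 0.446 against 0.171 over the 428 tested entries with a RefSeq sequence, which share libraries and depth. Its part in the contrast was not tested.

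**Figure D5:**
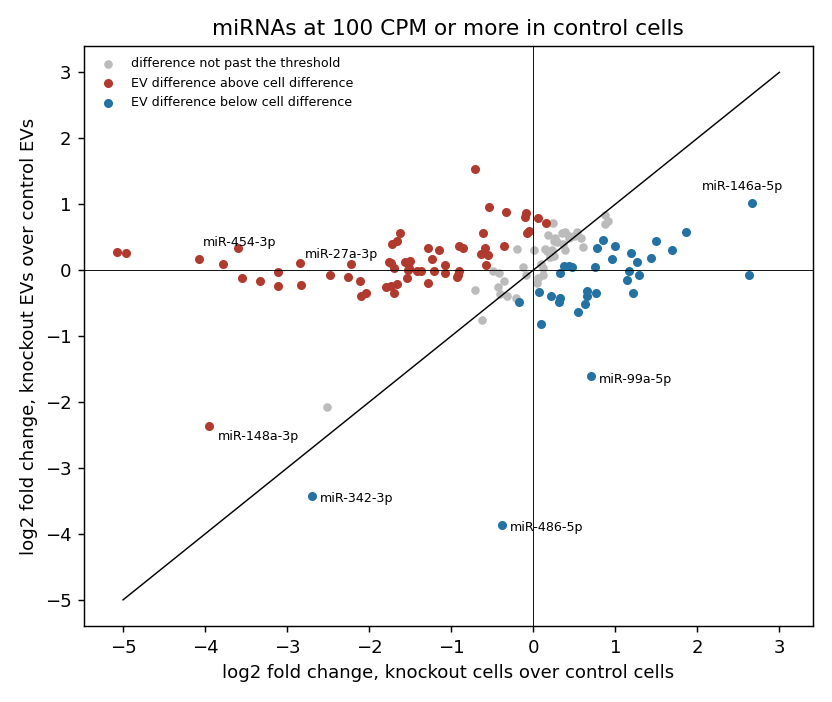
log2 fold change between knockout and control in cells (x axis) and in EVs (y axis) for the 141 miRNAs at 100 CPM or more in control cells; the diagonal marks equal changes, and colours mark entries whose EV and cell changes differed by the interaction test. Red entries, 62 in all, spread far to the left while most stay near 0 in EVs (miR-148a-3p, at −2.37, does not), and 35 blue entries lie below the diagonal, with miR-486-5p, miR-342-3p and miR-99a-5p the lowest.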

How the data were processed

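The authors deposited 1 table of raw counts per mature miRNA for 12 libraries. Per the submitters' processing notes, cutadapt, Bowtie and genome build hg19 were used; not given in the sources used here are versions, miRNA annotation, allowed mismatches and how multiply matching reads were handled. Small RNAs of 17 to 52 nt were size-selected in a 5′ monophosphate-dependent protocol, per the labels' protocols. Counts were tested with edgeR 4.0.16 (limma 3.58.1, R 4.3.3): quasi-likelihood test, robust dispersion, TMM factors, filterByExpr, Benjamini-Hochberg at 0.05. The EV comparison was fitted on the 6 EV libraries, since 2 libraries a group leave few degrees of freedom, and the interaction and cell differences on all 12. SE is the absolute log2 fold change over the square root of F. DESeq2 1.42.0 was an alternative. Other alternatives were scalings, no filter, thinning, identical entries taken once, a replicate block and leaving out each library.

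Groups came from the labels. A count of 0 was set at a limit of 3 counts over the group. A group's 1 to 3 counts gave a ratio with an exact 95% binomial interval. No molecular identifiers are recorded, so such limits cover counting error only. In simulated data, 89% of 2-fold and 99% of 4-fold changes were recovered for the EV comparison (490 entries), with 4.86% false among calls, and 63.7% and 89.6% for the interaction (526 entries), with 3.36% false. All simulated libraries shared the same mean profile, and the planted changes had random signs. These rates therefore do not cover errors of scaling under lopsided changes such as those between these EVs. Sequences and positions are from RefSeq (GRCh38.p14), matched by name for 428 of 488 tested entries. The members compared and all gene lists were chosen with earlier results of these data known. Entries named are both arms of miR-122 and its antisense miR-3591, up to 15 largest passing changes per direction with non-overlapping libraries and a mean CPM at or above the median of tested entries, the 10 most abundant entries of each group, up to 4 leading members of each list, and up to 8 interactions per direction; seed and cluster relatives beyond that rule were chosen after their values were seen.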

Additional observations from a re-analysis of the deposited data

Results flagged for a closer look

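Among miRNAs whose mean CPM over the 4 EV libraries was at or above the median of the entries tested for the interaction, and whose log ratios between libraries did not overlap between EVs and cells, 16 had the largest passing values in edgeR's interaction test over 12 libraries, 8 in each direction. The rarer miR-127-5p, outside that limit, stood at −9.84 (adjusted p = 0.02). The EV difference lay above the cell difference for miR-590-3p (5.21), miR-335-3p (5.09), miR-374b-3p (4.26), miR-454-3p (4.12), miR-374a-3p (3.8), miR-577 (3.77), miR-374a-5p (3.75) and miR-32-3p (3.61), as log2 values. All 8 were lower in knockout cells, against 34.7% of all tested entries. The choice by the interaction, which contains the cell difference, favours such entries, so this count gives no support. Of the 8, miR-577 alone passed in EVs, at 33.1 and 42 against 44.5 and 41.7 CPM (0.57, adjusted p = 0.0213). That rise was lost with library totals (0.2) and without any 1 of the control or knockout EV libraries. miR-590-3p held 114 and 113 CPM in control cells, 1.57 and 3.86 in knockout cells, 90.5 and 58.2 in control EVs and 81.8 and 54.9 in knockout EVs. miR-335-3p held 233 and 240 CPM in control cells, 5.02 and 7.12 in knockout cells, 77.9 and 88.2 in control EVs and 85.5 and 66.6 in knockout EVs.

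The EV difference lay below the cell difference for miR-376c-3p (−10.78), miR-155-5p (−9.99), miR-409-5p (−9.72), miR-144-3p (−9.47), miR-145-5p (−9.01), miR-127-3p (−8.5), miR-150-5p (−8.32) and miR-451a (−8.24). These sizes depend on the prior count, since the cells held few or no counts: miR-376c-3p had none in control cells, and none of the 8 reached 2 CPM in any control or knockout cell library. Without knockout cell replicate 2, the interaction no longer passed for miR-144-3p (−4.88), miR-150-5p (−6.45), miR-155-5p (−6.19) and miR-451a (−6.21). Control cell replicate 1 also decided miR-144-3p (−9.83) and miR-451a (−7.6), and control cell replicate 2 miR-144-3p (−9.12).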

How the results depend on the processing

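The number of passing entries in EVs was 201 and lay between 171 and 219 with other scalings, tools, filters and thinning, and between 127 and 205 without 1 library; the lowest, 127, came without control EV replicate 2. The number of higher entries, 92, fell to 42 with library totals, 60 with DESeq2 and 59 with identical entries taken once, and ranged from 35 to 83 without 1 library. The number of lower entries, 109, rose to 177 with library totals and ranged from 92 to 138 without 1 library. With library totals the differences of miR-10a-5p (−0.05), miR-181b-5p (−0.06), miR-21-5p (−0.31), miR-24-3p (−0.07), miR-30c-5p (−0.01), miR-30d-5p (−0.09), miR-34c-5p (−0.3), miR-92a-3p (−0.07) and miR-93-5p (−0.32) turned negative; by construction this scaling lowers all differences. The interaction passed for 277 entries, for 239 to 282 under other edgeR settings, with DESeq2 for 129 above and 172 below 0, and for 233 to 273 without 1 library; entries above 0 were 62% of its calls without the RAB27A knockdown libraries, against 51.6%. Of 193 single results, 120 kept direction and side of the threshold under all alternatives. Replicate numbers did not pair the samples: deviations from the group means correlated at −0.0127 between control and knockout EVs (423 entries), and at −0.0643 and −0.0328 between EVs and cells. A fit with the replicate number as a block gave 181 passing entries in EVs, 79 higher and 102 lower, and 269 for the interaction. The depth puts 3 counts at 0.799 to 1.26 CPM in the 4 EV libraries.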
